A study of Danio rerio with 5 samples.

Results

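Sorted border zone cardiomyocytes of the zebrafish heart at 7 days post-cryo-injury (dpci) were ranked, well by well, by the share of their UMIs that came from 7 genes of ATP synthase. How much of the spread of this share over wells is counting noise was not tested. The cells described here are the ATP synthase-high and the ATP synthase-low wells of the 3 plates taken at that time. A well was kept when it held at least 1000 UMIs outside the ERCC spike-ins (synthetic RNAs added to every well) and when myl7, an atrial myosin light chain that zebrafish cardiomyocytes of both chambers transcribe, made up at least 1% of them. A UMI is a molecular tag that lets each captured transcript be counted once. This left 484 of the 1152 wells of the 3 plates, of 919 such wells among the 1920 of the whole series. Each kept well received a score, the summed UMIs of 7 nuclear genes of ATP synthase as a percentage of its non-ERCC UMIs, and the wells of each plate were ranked by it. The ranking of each plate was split into 3 groups of near equal size, high, middle and low. The high group held 32, 65 and 63 wells on plates 1, 2 and 3, and the low group held the same numbers, 320 wells in all. The high and the low cells were therefore chosen by measured values of these libraries, and the score and its 7 genes are described below without a test.

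The cells came from the hearts of TL zebrafish, injured at the tip of the ventricle with a copper probe cooled in liquid nitrogen. All groups carried the nppa:mCitrine reporter, and cells were sorted on its fluorescence, 1 to a well, into 384-well plates for SORT-seq, a robotic form of CEL-Seq2 that reads the end of each transcript. The reporter was made on a bacterial artificial chromosome and marks cells in which the nppa sequences are active, so it limits the samples to that population. Besides the 3 plates of 7 dpci there was a single plate for each earlier time, 3 dpci and 1 dpci, used here only to show the same split at another time. No label says which fish went into which plate. The p-values set the difference between the groups of a plate against its variation over plates, and this variation may be technical. For single genes the test estimates that variation in part from other genes. A gene read mostly on 1 plate can therefore be called. The 384 well barcodes are shared by all plates by design.

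ATP synthase, complex V of the respiratory chain, uses the proton gradient across the inner mitochondrial membrane to make ATP. Its F1 head carries the catalytic sites between alternating alpha and beta subunits, a central stalk turns inside that head, and a membrane part with a ring of c subunits conducts the protons. Nearly all of its subunits are encoded in the nucleus, and a few are encoded in mitochondrial DNA. Cardiomyocytes of the adult mammalian heart depend on it and on fatty acid oxidation for contraction. In the injured zebrafish heart, cardiomyocytes next to the wound are known to re-enter the cell cycle and to change their metabolism.

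The kept wells carried cardiomyocyte markers, which the well filter on myl7 in part required. Summed over a group of a plate, 10 to 12 of 13 cardiomyocyte markers were detected and took 15.5% to 18.8% of the nuclear UMIs. These markers include myl7, so their share is not independent of the filter. The share without myl7 was not computed. Markers of macrophages took at most 0.0627% and those of endothelial or endocardial cells at most 0.0182%. The list of smooth muscle or mural markers took 0.0178% to 0.140%. The 0.140% was in the high group of plate 1. Markers of other cell types were also counted well by well, with the smooth muscle or mural list left out. Only 4 wells held 3 or more UMIs and 0.1% or more of the markers counted. All 4 were in the low group, 1 on plate 1 and 3 on plate 2.

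By construction the score differed between the groups. Its median was 1.08%, 1.36% and 1.36% of non-ERCC UMIs in the low groups of plates 1, 2 and 3, and 2.42%, 2.95% and 3.00% in the high groups. The values formed 1 continuous range with no gap at the limits. On plate 1 the lowest well of the high group had 2.032% and the highest well of the middle group 2.031%, and the lowest of the middle group had 1.412% against 1.407% for the highest of the low group. On plates 2 and 3 the upper limit lay between 2.515% and 2.536% and between 2.442% and 2.443%. Exactly 1 well, on plate 1, had no UMI of the 7 genes.

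**Figure D1:**
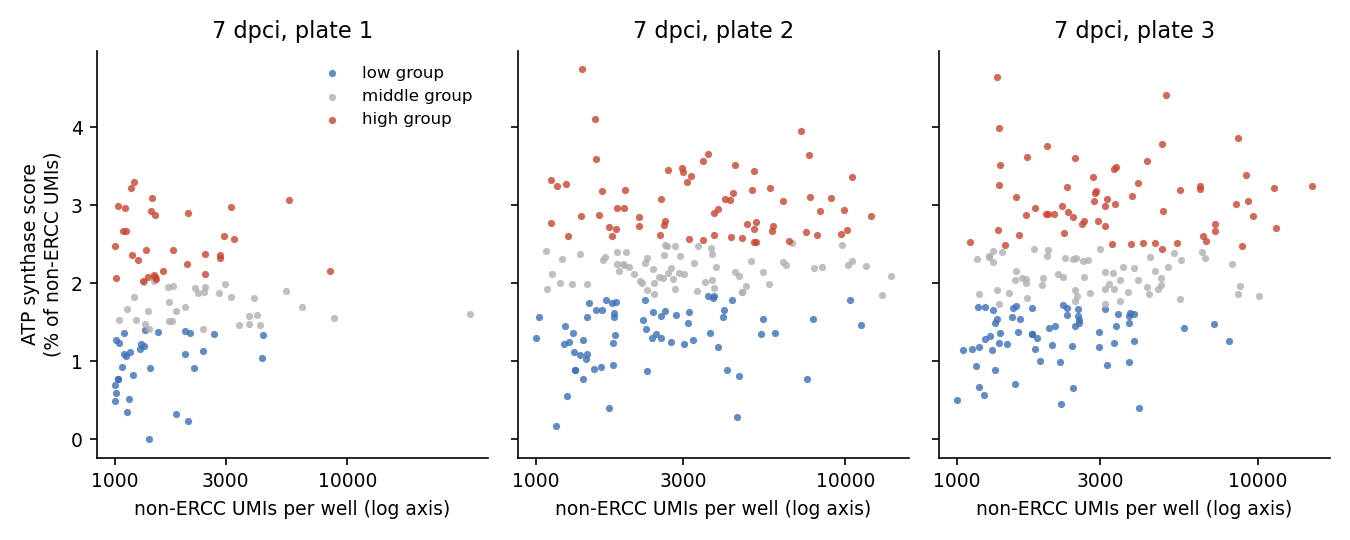
Each point is 1 kept well at 7 dpci, placed by its non-ERCC UMIs (log axis) and its ATP synthase score (% of non-ERCC UMIs), with the low group in blue, the middle group in grey and the high group in red. The groups meet without a gap, and on plates 2 and 3 the high group reaches a larger median depth (3752 and 3152 UMIs) than the low group (2246 and 2034).

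Within the score, the 2 subunits of the catalytic head carried most of the split. ATP5F1A (alpha, ENSDARG00000010149) took 0.170%, 0.189% and 0.205% of non-ERCC UMIs in the low groups of plates 1, 2 and 3 and 0.606%, 0.649% and 0.690% in the high groups, a ratio of 3.57, 3.43 and 3.36. ATP5F1B (beta, ENSDARG00000070083) took 0.201%, 0.348% and 0.338% in the low groups and 0.764%, 1.06% and 1.04% in the high groups, a ratio of 3.80, 3.05 and 3.07. The other 5 genes split the wells less.

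The gamma subunit of the central stalk, ATP5F1C (ENSDARG00000045514), had ratios of 2.00, 1.79 and 2.08 on plates 1, 2 and 3. ATP5PB (ENSDARG00000011553), of the outer stalk, had 1.79, 1.70 and 2.01. ATP5F1D (delta, ENSDARG00000019404) had 2.01, 1.57 and 1.17, and the membrane subunits ATP5MC3 (c, ENSDARG00000017775) and ATP5MG (g, ENSDARG00000011841) had 1.88, 1.41 and 1.70, and 1.497, 1.18 and 1.33. ATP5F1A and ATP5F1B together supplied 48.4%, 51.6% and 53.0% of the score UMIs of the 3 plates.

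The alpha and beta genes also stood out in how they varied together over the kept wells. Spearman's rho of their shares was 0.546, 0.549 and 0.556 over the 98, 197 and 189 wells of plates 1, 2 and 3. The next highest of the 21 pairs of score genes reached 0.345, 0.330 and 0.307, and the median pair 0.113, 0.154 and 0.126. These are descriptions: the wells of a plate share a library, and low counts weaken the correlations of the rarer genes.

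The rest of complex V gave no call. Of 15 further gene IDs for its subunits, inhibitors and assembly factors, 14 could be tested and 0 of them were called in either direction, with a median log2 fold change of -0.05 and 5 of 14 above 0 (edgeR, 3 of the 14 at an unadjusted p under 0.05, and 0 called by DESeq2). Over all 1893 genes tested, 8.61% were called in either direction and the median was 0.15, with 1098 above 0. Of the 1893, 312 had an unadjusted p under 0.05. The signs of the 14 depended on the scaling: as plain shares of non-ERCC UMIs, most had a mean log2 ratio above 0. The values below were picked for their roles after they were seen.

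Epsilon, which completes the central stalk next to the gamma and delta subunits (atp5f1e), took 0.187%, 0.148% and 0.160% of non-ERCC UMIs in the low groups of plates 1, 2 and 3 and 0.128%, 0.132% and 0.142% in the high groups. It was lower in the high group on each plate, with a log2 fold change of -0.40 that missed the threshold (adjusted p = 0.11). A second c-subunit gene, atp5mc3b, took 0.666%, 0.448% and 0.552% in the low groups and 0.681%, 0.512% and 0.560% in the high groups. These shares were slightly higher in the high group on each plate, while its fitted fold change was -0.05 on the log2 scale (adjusted p = 0.88). That edgeR fit leaves mitochondrial and score genes out of the totals and scales the totals by TMM.

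The stalk gene ATP5PO, which encodes OSCP, had 0.14 and an adjusted p of 0.64. The inhibitory factors atp5if1a and atp5if1b, small proteins that stop ATP synthase from running backwards, had 0.42 ± 0.25 (SE) and 0.34 ± 0.16, with adjusted p = 0.44 and 0.27. As a share of nuclear UMIs, all listed complex V genes outside the score took 2.77%, 2.35% and 2.54% in the low groups and 2.80%, 2.53% and 2.59% in the high groups. That is a difference of 0.0866 ± 0.0842 percentage points (SD, n = 3 plates), higher on all 3 plates (exact paired permutation test, two-sided, p = 0.25, the smallest that 3 pairs allow).

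**Figure D2:**
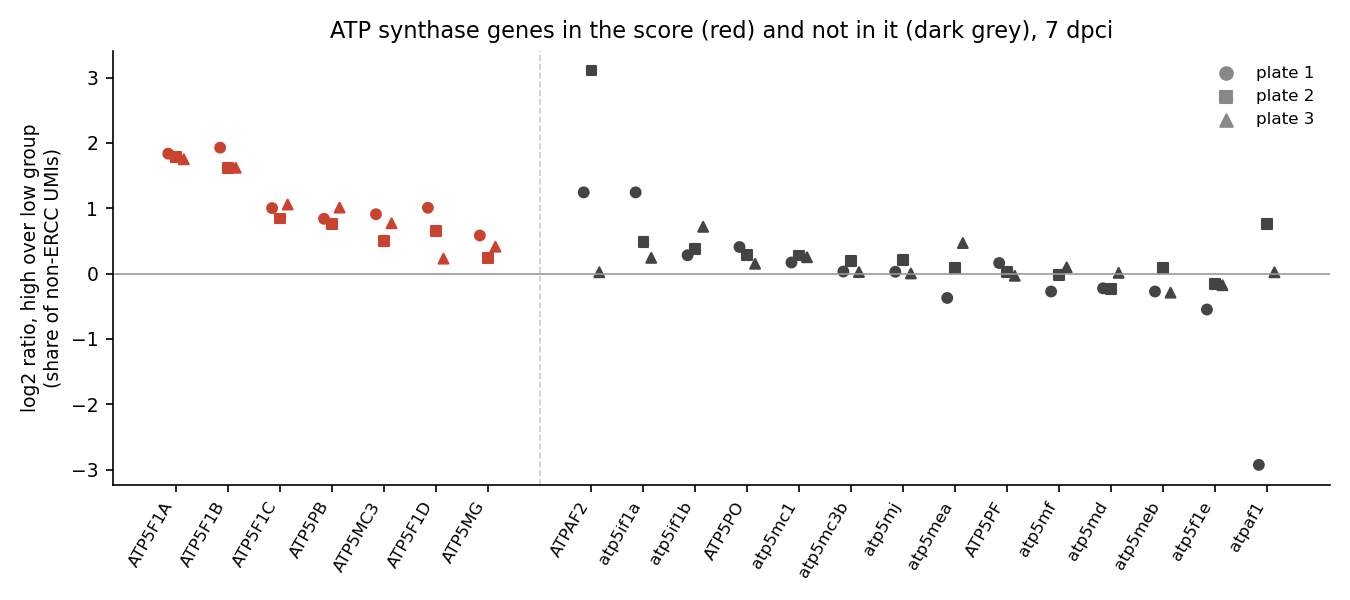
Log2 ratio of the share of non-ERCC UMIs, high over low group, for the 7 score genes (red) and 14 other ATP synthase genes (dark grey), with 1 point per 7 dpci plate. ATP5F1A and ATP5F1B lie at ratios of 3.05 to 3.80, the other score genes between 1.17 and 2.08, and most genes outside the score near 0 on the log2 scale, with ATPAF2 and atpaf1, read in few UMIs, the most scattered.

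Beyond ATP synthase the groups differed in 163 of 1893 genes with at least 30 UMIs over the 6 sums (adjusted p under 0.05). In the high group 74 were higher, or 3.91% of those tested, and 89 were lower, or 4.70%. Of the 163, 159 had the same sign on all 3 plates, and in 154 the middle group lay between the other groups. The genes were called on these same plates, so a shared sign is in part fixed by the call. The shares over all genes tested were not computed for these counts. Without plate 1, 63 genes were higher and 132 lower, without plate 2 24 and 60, and without plate 3 29 and 43. The share of higher genes among those called depended on the scaling: 45.4% with TMM, 57.5% with library totals, 34.7% with median-of-ratios size factors and 28.6% in DESeq2. At least a 2-fold difference was fitted for 38 of the higher and 9 of the lower genes. The groups did not overlap over plates in 391 genes, 20.7% of those tested. All values are shares of the RNA captured from a group of wells, so a higher share of one transcript and a lower share of the others cannot be told apart. The high group was deeper, with median non-ERCC UMIs of 1480, 3752 and 3152 against 1298, 2246 and 2034 in the low group of plates 1, 2 and 3. Median genes per well were 389, 637 and 641 against 337, 440 and 411. When the groups were formed inside the deeper and the shallower wells of each plate separately, 35 genes were higher and 63 lower. Of these 98, 95 were among the 163. Depth still varied inside each class, so wells were not matched for it. With every well thinned to 1000 UMIs, 27 genes were higher and 37 lower, and 61 of these 64 were among the 163.

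Among nuclear genes of the electron transport chain, every call outside ATP synthase was a higher one. The chain genes encoded in mitochondrial DNA were left out of this fit and are described further below. Among all genes tested 3.91% were higher, the share to read the counts of complexes I to IV against. Complex I, which takes electrons from NADH, had 6 of 35 tested genes higher and 0 lower, with a median of 0.33 (3 genes higher without plate 2 and 2 without plate 3). Its median was higher than that of all genes on each plate (0.20, 0.36 and 0.30 against 0.14, 0.14 and 0.15). The 7 core subunits that carry the redox centres held 3 of the 6 calls and were all above 0. The other 28 genes held the other 3 calls, with 22 above 0 (groups drawn after the values were seen). Of all 1893 genes tested, 1098 were above 0.

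NDUFS1, the largest core subunit, stood at 82.6, 249 and 164 CPM (UMIs scaled to a common, TMM-adjusted total) in the low groups of plates 1, 2 and 3 and at 320, 675 and 613 in the high groups. Every high group was above every low group. The log2 fold change was 1.69 ± 0.29 (SE, adjusted p = 0.00116). NDUFA9, an accessory subunit, was at 20.7, 180 and 148 CPM in the low groups and at 305, 536 and 404 in the high groups, where the groups again did not overlap (1.73 ± 0.35, adjusted p = 0.00391). NDUFB5, of the membrane arm, was higher as well, by 1.02 ± 0.24 (adjusted p = 0.00951).

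In complex II, which links the citric acid cycle to the chain, SDHA, its flavoprotein, was the 1 call of 4 genes. It rose from 62.0, 137 and 78.1 CPM to 91.5, 357 and 262, and plate 1 high lay below plate 2 low, so the groups overlapped (1.401 ± 0.420, adjusted p = 0.0449). Complex III passes electrons from ubiquinol to cytochrome c, and its core proteins were 2 calls of 9 tested genes. UQCRC1 stood at 248, 261 and 250 CPM in the low groups and at 899, 675 and 856 in the high groups (1.63 ± 0.23, adjusted p = 0.000284).

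UQCRC2, its partner, went from 413, 354 and 344 to 777, 761 and 755 CPM (1.07 ± 0.21, adjusted p = 0.00338). The cytochrome c gene with most UMIs, cycsb, took the other direction on all 3 plates, from 2809, 2363 and 2735 to 1921, 1914 and 2173 CPM, and missed the threshold (-0.38 ± 0.13, adjusted p = 0.0896). Complex IV, the terminal oxidase, had 2 of 14 genes higher, both small nuclear subunits: COX5B (ENSDARG00000068738) by 0.67 ± 0.15 and COX6A1 by 0.58 ± 0.14 (adjusted p = 0.00702 and 0.0158). COX4I1, the cox gene with most UMIs, was at 3656, 3003 and 2993 CPM in the low groups and 3414, 3296 and 3235 in the high groups, and its difference of 0.06 ± 0.12 was not called.

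The calls of other mitochondrial gene groups are to be read beside 3.91% higher and 4.70% lower among all genes. Of all 1893 genes tested, 312 had an unadjusted p under 0.05. Of 53 mitochondrial ribosome genes 0 were called by edgeR (median 0.13, 2 at an unadjusted p under 0.05), and of 20 genes for import, chaperones and biogenesis 0 were called (median 0.06, 2 at an unadjusted p under 0.05). The carriers and kinases that move high-energy phosphate out of mitochondria had 2 of 12 higher and 1 lower. CKMT2 (ENSDARG00000069615), the creatine kinase of the mitochondrial intermembrane space, stood at 124, 330 and 328 CPM in the low groups and at 488, 936 and 984 in the high groups (1.60 ± 0.23, adjusted p = 0.000284).

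A second gene ID with the same name (ENSDARG00000039929) had 0.37 ± 0.20 (adjusted p = 0.374). SLC25A3, the phosphate carrier, was higher by 0.43 ± 0.13 (adjusted p = 0.04), and AK1, a cytosolic adenylate kinase, was lower by 0.48 on the log2 scale (-0.48 ± 0.12, adjusted p = 0.0144). The adenine nucleotide translocase read as SLC25A4 held 6, 8 and 5 UMIs in the low groups and 0, 3 and 14 in the high groups and gave -1.42 ± 0.94 (adjusted p = 0.486). The muscle creatine kinase ckma had 0.24 ± 0.11 (adjusted p = 0.317). PRDX3, a mitochondrial peroxiredoxin, was the 1 call of 11 antioxidant genes (0.74 ± 0.21, adjusted p = 0.032), against 8.61% of all genes.

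**Figure D3:**
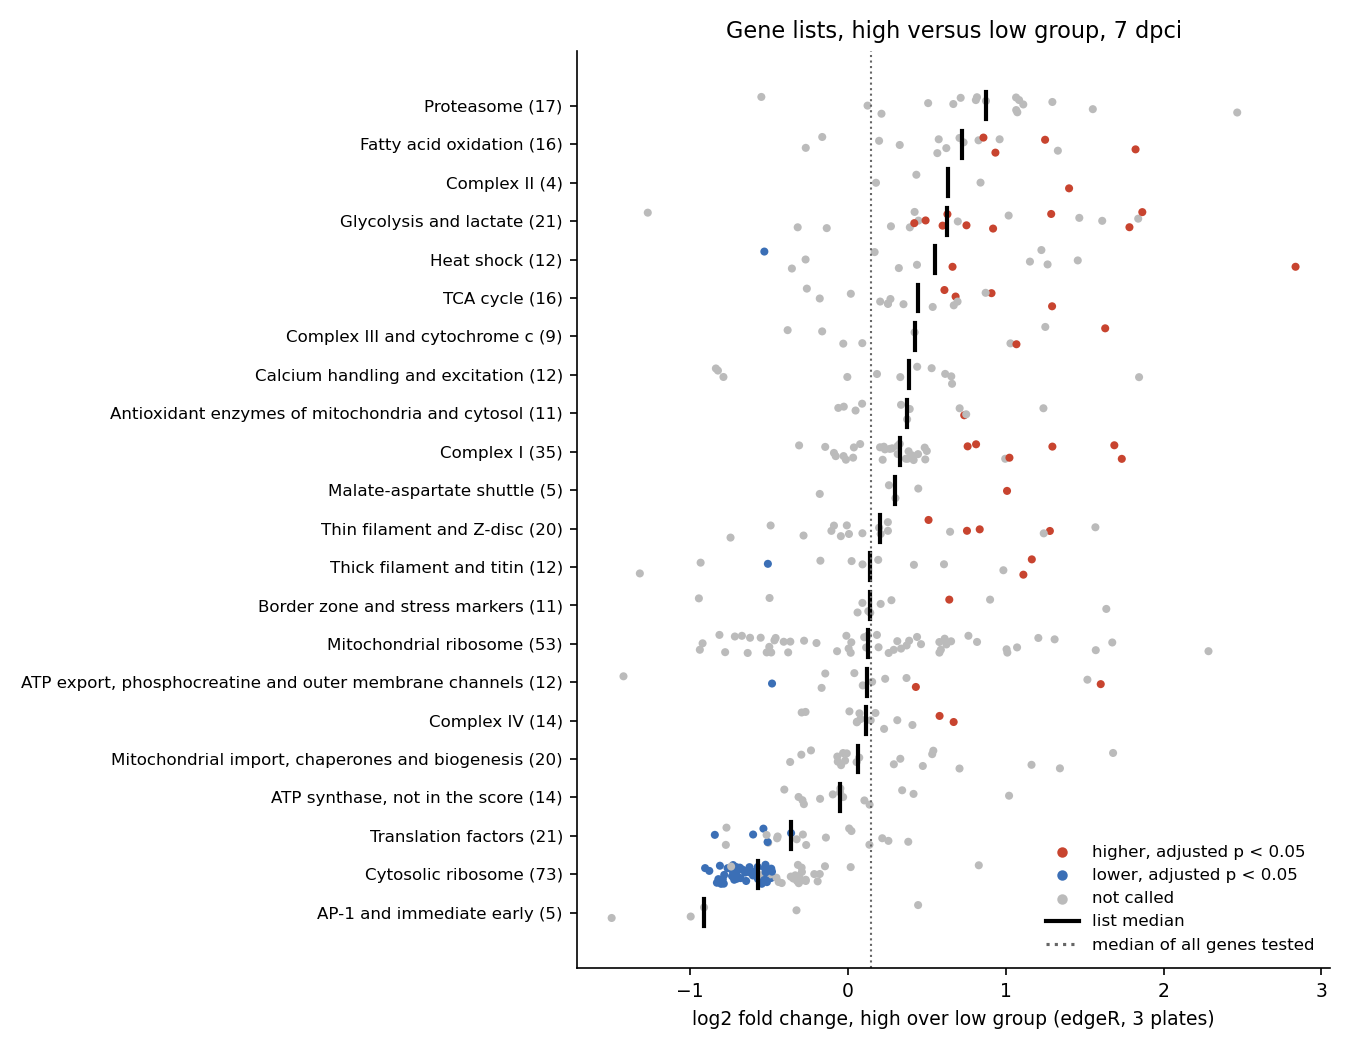
Log2 fold change of high over low group for the tested genes of each list (number tested in brackets), with called genes in red (higher) or blue (lower), the list median as a black bar and the median of all 1893 genes as a dotted line at 0.15. Cytosolic ribosome genes (median -0.57) lie left of the line and fatty acid oxidation (0.72) and glycolysis (0.63) right of it, while ATP synthase genes outside the score (-0.05) hold no call.

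In the citric acid cycle and its entry, 4 of 16 genes were higher and 0 lower (median 0.44, and 0 called without plate 3), against 3.91% and 4.70% of all genes. Of the 4, 3 were parts of 1 machine, the 2-oxoglutarate dehydrogenase complex, a grouping made after the values were seen. Its E1 component ogdha stood at 248, 317 and 234 CPM in the low groups and at 640, 668 and 666 in the high groups (1.29 ± 0.24, adjusted p = 0.00225). Its E2 component DLST and its E3 component DLD, which pyruvate dehydrogenase also uses, were higher by 0.91 ± 0.23 and 0.68 ± 0.20 (adjusted p = 0.0159 and 0.0449). PDHB, the beta part of pyruvate dehydrogenase E1, was higher by 0.61 ± 0.16 (adjusted p = 0.0199).

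The malate-aspartate shuttle, which carries the electrons of cytosolic NADH into mitochondria, had 1 of 5 genes called, against 8.61% of all genes. That gene was got2b, a mitochondrial aspartate aminotransferase, at 124, 218 and 234 CPM in the low groups and 442, 373 and 423 in the high groups (1.01 ± 0.31, adjusted p = 0.0475). Its paralog GOT2 was not called (0.45 ± 0.16, adjusted p = 0.118). The malate dehydrogenases MDH1 and MDH2 had 0.30 ± 0.12 and -0.18 ± 0.11 (adjusted p = 0.166 and 0.459).

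Fatty acid oxidation held the gene with the lowest p of the whole comparison. ACADVL, the very long chain acyl-CoA dehydrogenase of the first step, stood at 454, 914 and 969 CPM in the low groups of plates 1, 2 and 3 and at 2454, 2873 and 3096 in the high groups. Every high group was above every low group, and pooled over plates the middle group had 1585 CPM between 748 in the low and 2903 in the high group. The log2 fold change was 1.82 ± 0.16 (adjusted p = 2.23e-06), 3.54-fold.

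Of 16 genes of the list 4 were higher and 0 lower (median 0.72), against 3.91% and 4.70% of all genes, but 1 was higher without plate 2 and 1 without plate 3. ETFB, which hands electrons from these dehydrogenases to the chain, was higher by 0.93 ± 0.22, hadhaa, the alpha part of the trifunctional protein, by 1.25 ± 0.35, and ACADM, the medium chain enzyme, by 0.86 ± 0.21 (adjusted p = 0.00938, 0.0296 and 0.0153). For ACADM, plate 1 did not follow: it had 826 CPM in the low and 793 in the high group, against 585 and 1386 on plate 2 and 625 and 1294 on plate 3. The list median was 0.21 on plate 1 and 0.99 and 0.85 on plates 2 and 3. FABP3, which carries fatty acids through the cytosol, had -0.16 ± 0.12 (adjusted p = 0.55).

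Of 21 genes of glycolysis and lactate metabolism 9 were higher and 0 lower (median 0.63, and 2 higher and 2 lower without plate 2), against 3.91% and 4.70% of all genes. The list took 5.23%, 5.14% and 5.14% of nuclear UMIs without the score genes in the low groups. In the high groups it took 6.26%, 6.81% and 6.54%. The difference was 1.36 ± 0.32 percentage points (SD, n = 3 plates, exact paired permutation test, p = 0.25, the smallest possible). GPI, which turns glucose 6-phosphate into fructose 6-phosphate, stood at 62.0, 155 and 125 CPM in the low groups and at 488, 400 and 423 in the high groups (1.78 ± 0.34, adjusted p = 0.00251). PFKM, the muscle phosphofructokinase that commits sugar to glycolysis, went from 0, 56.0 and 164 to 137, 272 and 378, so plate 1 high lay below plate 3 low (1.86 ± 0.47, adjusted p = 0.017).

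The aldolase ALDOA (ENSDARG00000011665), which splits the 6-carbon sugar, stood at 15037, 10751 and 9884 CPM in the low groups and 22102, 17069 and 15673 in the high groups (0.63 ± 0.10, adjusted p = 0.000499). GAPDHS, a glyceraldehyde 3-phosphate dehydrogenase, and ENO1, an enolase, were higher by 1.29 ± 0.25 and 0.75 ± 0.15 (adjusted p = 0.00256 and 0.00338). LDHB, the heart form of lactate dehydrogenase, was higher by 0.60 ± 0.13 (adjusted p = 0.00658).

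PDK4, a kinase that switches pyruvate dehydrogenase off, was also higher, from 145, 286 and 305 CPM to 427, 462 and 557 (0.92 ± 0.27, adjusted p = 0.0434). Hexokinase HK1, the first step, had 41.3, 74.6 and 62.5 CPM in the low groups and 91.5, 210 and 82.3 in the high groups and was not called (1.02 ± 0.56, adjusted p = 0.38).

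Of the thick filament, thin filament and Z-disc genes called, all but MYL7 were higher, and MYL7 is tied to the choice of wells. The thick filament list had 2 of 12 genes higher and 1 lower, against 3.91% and 4.70% of all genes. A myosin heavy chain gene read as MYH7 (ENSDARG00000079782) stood at 4978, 5826 and 8361 CPM in the low groups and at 9816, 15477 and 17707 in the high groups (1.16 ± 0.11, adjusted p = 3.07e-06), and near-identical myosin genes may share its reads. MYBPC3, the cardiac myosin-binding protein, went from 1549, 2096 and 2625 to 4344, 4181 and 5075 (1.11 ± 0.13, adjusted p = 8.09e-05).

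MYL7, the light chain, went the other way, from 111144, 99540 and 90724 to 74766, 70880 and 65900 CPM (-0.51 ± 0.08, adjusted p = 0.000646). MYL7 is not independent of the choice of wells, because it entered the well filter and is itself part of the denominator of the score. With a score over UMIs that leave out MYL7, ribosomal protein and mitochondrial genes, an alternative chosen after seeing the data, its call was lost (-0.30, adjusted p = 0.13).

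Of 20 thin filament and Z-disc genes 4 were higher and 0 lower, against 3.91% and 4.70% of all genes. DES, the intermediate filament desmin that ties Z-discs together, stood at 289, 267 and 438 CPM in the low groups and at 701, 819 and 856 in the high groups (1.28 ± 0.23, adjusted p = 0.00147). The troponins TNNI1 and TNNT2 were higher by 0.75 ± 0.11 and 0.51 ± 0.10 (adjusted p = 0.000465 and 0.0034), and ACTA1 (ENSDARG00000036371), a skeletal type alpha-actin, by 0.83 ± 0.25 (adjusted p = 0.0468). The main cardiac actin actc1a and troponin C tnnc1a were near 0, at -0.05 ± 0.09 and 0.01 ± 0.12 (adjusted p = 0.856 and 0.986). Of 12 calcium handling and excitation genes 0 were called by edgeR. An unadjusted p under 0.05 was found for 4 of the 12, against 312 of all 1893 genes tested.

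Myoglobin, which stores oxygen in muscle, was the 1 call of 11 border zone and stress markers, against 8.61% of all genes. The gene mb stood at 29454, 26831 and 23332 CPM in the low groups and at 46917, 41672 and 35845 in the high groups. The high groups were above all low groups, and on each plate the ratio was similar (0.64 ± 0.09, adjusted p = 0.000243). The natriuretic peptide genes that mark the border zone were not called.

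For nppa, the gene of the reporter, the low groups had 392, 124 and 461 CPM and the high groups 549, 276 and 236, with plate 3 opposite to the other plates (0.13 ± 0.35, adjusted p = 0.898). For nppb the fold change was -0.50 ± 0.43 (adjusted p = 0.621). Cell cycle genes were too rare to compare: 3 of 29 listed IDs passed the count filter, and PCNA, a clamp of replicating DNA, held 0, 8 and 17 UMIs in the low groups of plates 1, 2 and 3 and 3, 5 and 12 in the high groups (-0.84 ± 0.87, adjusted p = 0.689).

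**Figure D4:**
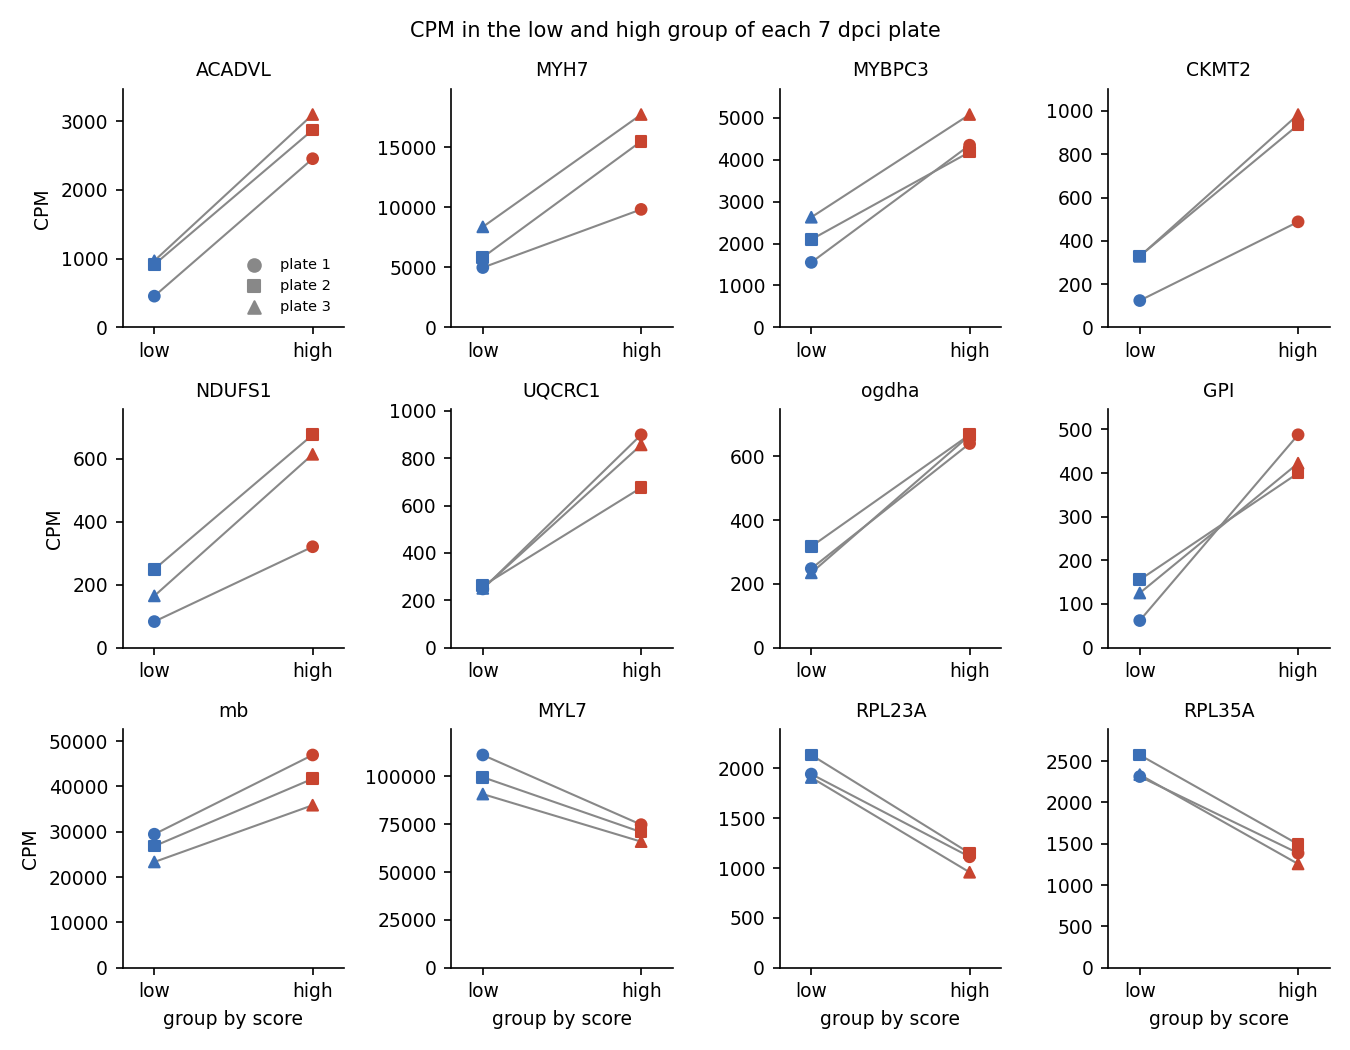
CPM (axes from 0) of 12 genes in the low (blue) and high (red) group of each 7 dpci plate, with a line joining the groups of a plate and CKMT2 shown for ENSDARG00000069615. ACADVL moves from 454, 914 and 969 to 2454, 2873 and 3096, and MYL7, RPL23A and RPL35A are lower in the high group on all 3 plates.

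The lower genes of the high group were mostly of the cytosolic ribosome, the machine that translates nuclear messages. Of 73 ribosomal protein genes tested 48 were lower and 0 higher, against 4.70% lower among all genes. Below 0 were 71 of 73 (median -0.57), against 795 of all 1893 genes. Without plate 3, 21 of 73 were lower. In 46 of the 73 the groups did not overlap over plates, against 20.7% of all genes. The list took 14.0%, 14.7% and 14.6% of nuclear UMIs without the score genes in the low groups. In the high groups it took 11.7%, 10.3% and 9.95%. The difference was -3.76 ± 1.28 percentage points (SD, n = 3 plates, exact paired permutation test, p = 0.25, the smallest possible).

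RPL23A, of the large subunit, stood at 1942, 2133 and 1907 CPM in the low groups and 1113, 1149 and 957 in the high groups (-0.91 ± 0.15, adjusted p = 0.000864). RPL35A, also of the large subunit, went from 2313, 2574 and 2336 to 1387, 1495 and 1257 (-0.81 ± 0.14, adjusted p = 0.00116). Because ribosomal messages are a large part of the UMIs, they too enter the denominator of the score. With the score over the reduced denominator named above, 22 of 73 were lower and 0 higher (median -0.38).

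Translation factors had 5 of 21 lower and 0 higher (median -0.36), against 4.70% lower among all genes. The poly(A)-binding proteins pabpc1a and pabpc1b, which hold the tails of messages, were lower by -0.84 ± 0.18 and -0.60 ± 0.15 on the log2 scale (adjusted p = 0.00452 and 0.0182). The elongation factor eef1a1l1 stood at 10658, 15925 and 14877 CPM in the low groups and at 9008, 12570 and 10613 in the high groups (-0.36 ± 0.10, adjusted p = 0.0296), and eif5a had -0.51 ± 0.13 (adjusted p = 0.0208).

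Of 17 proteasome genes, by contrast, 16 were above 0 with a median of 0.87, against 1098 above 0 of all 1893 genes. They were read in few UMIs and 0 were called by edgeR (1 at an unadjusted p under 0.05, against 312 of 1893). The list median was 0.54, 1.28 and 0.64 on plates 1, 2 and 3. On the single plates of 1 and 3 dpci it was 0.20 and -0.34. Of 12 heat shock genes 2 were higher and 1 lower, against 3.91% and 4.70% of all genes. The stress-inducible chaperone hsp70l stood at 82.6, 62.2 and 93.8 CPM in the low groups and at 213, 691 and 632 in the high groups (2.84 ± 0.37, adjusted p = 0.000215). Its UMIs were uneven over wells: 3, 28 and 24 wells of the high groups held any, and a single well held up to 34 on plates 2 and 3. The small heat shock protein hspb6, abundant in muscle, was higher by 0.66 ± 0.14, and HSP90AB1, a constitutive cytosolic chaperone, was lower (-0.53 ± 0.14, adjusted p = 0.00416 and 0.0214).

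The genes encoded in mitochondrial DNA depended on how the score was written. They were left out of the fit above. When they were kept, 10 of 11 tested genes were lower in the high group and 0 higher, with a median of -1.03. For MT-CO2, a catalytic subunit of complex IV, the value was -1.21 ± 0.14, and for MT-ATP6, which forms the proton channel of ATP synthase itself, -0.99 ± 0.15. Mitochondrial UMIs are part of the denominator of the score, and they took 5.38%, 8.44% and 7.62% of the UMIs of the low groups against 4.02%, 3.53% and 2.79% of the high groups. When the score was taken over the non-mitochondrial UMIs, a combination added after seeing the data, 0 of the 11 were called and the median was 0.11, with 0.03 ± 0.13 for MT-CO2 and 0.07 ± 0.12 for MT-ATP6. In that fit 54 genes overall were higher and 68 lower. By the median over wells, the mitochondrial share was 1.68%, 3.89% and 2.64% in the low groups and 3.35%, 2.01% and 1.82% in the high groups, so plate 1 ran opposite to plates 2 and 3.

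The largest fold changes belonged mostly to genes with few UMIs. Among genes higher on all 3 plates, an unnamed gene (ENSDARG00000012709) held 0, 2 and 0 UMIs in the low groups and 3, 32 and 29 in the high groups (adjusted p = 0.0141, no fold given against 2 UMIs). DUSP22, a dual specificity phosphatase, held 0, 2 and 2 against 2, 35 and 25 UMIs, and dhrs4, a dehydrogenase/reductase, 0, 5 and 2 against 9, 27 and 30 (3.05 ± 0.87 and 2.54 ± 0.76, adjusted p = 0.0352 and 0.0435). RAB10, a small GTPase of vesicle transport, was higher by 2.104 ± 0.574 (adjusted p = 0.0272).

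Better counted were zgc:85777, at 1, 18 and 13 UMIs in the low groups and 21, 126 and 99 in the high groups (2.20 ± 0.38, adjusted p = 0.00122), and the unnamed ENSDARG00000095765, at 1, 15 and 20 against 11, 123 and 140 (2.11 ± 0.36, adjusted p = 0.00122). MCCC2, a subunit of the carboxylase that breaks down leucine in mitochondria, held 0, 12 and 12 UMIs in the low groups and 14, 65 and 60 in the high groups (1.85 ± 0.51, adjusted p = 0.0296). Their UMIs were spread over many wells: those of MCCC2 over 7, 25 and 28 wells of the high groups.

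On the lower side, single wells carried several of the largest values. An unnamed gene (ENSDARG00000059120) held 8, 46 and 6 UMIs in the low groups and 0 in the high groups, but 40 of the 46 came from 1 well of plate 2 (adjusted p = 0.000897, no fold given against 0). For si:dkey-238c7.12, at 38, 104 and 12 UMIs against 0, 1 and 6, single wells gave 35 and 98 of the UMIs of plates 1 and 2 (-4.85 ± 0.68, adjusted p = 0.000284). The macrophage marker cd74a (an MHC class II chaperone) held 66 UMIs in 1 well of the low group of plate 2, 2 in the low group of plate 3 and 0 in every high group (adjusted p = 0.00182). Without the 4 wells that held markers of other cell types, chosen after seeing the data, all 3 of these genes dropped below the count filter, and 61 genes were higher and 103 lower.

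ENSDARG00000087504 was lower too (-2.92 ± 0.42, adjusted p = 0.000284), with 13, 50 and 23 of its 14, 68 and 46 UMIs of the low groups in 1 well of each plate. The ferritin-like gene fthl27, which stood at 103, 908 and 125 CPM in the low groups and at 61.0, 54.3 and 86.0 in the high groups, had 129 of its 146 plate 2 UMIs in 1 well (-2.21 ± 0.58, adjusted p = 0.0205). GADD45B, a stress-induced gene, had 10, 16 and 8 of its 10, 23 and 19 UMIs of the low groups in 1 well each (-2.02 ± 0.59, adjusted p = 0.0397). TACC1, at 16, 29 and 47 UMIs in the low groups against 6, 28 and 25, had -1.47 ± 0.41 (adjusted p = 0.0296). For si:ch211-222l21.1, at only 16, 6 and 5 UMIs against 3, 1 and 0, the value was -3.32 ± 0.94 (adjusted p = 0.032). Its groups overlapped over plates. Among the lowest called values were also 2 better counted unnamed genes, ENSDARG00000035756 and ENSDARG00000091334, with -0.91 ± 0.19 and -0.92 ± 0.26 (adjusted p = 0.00518 and 0.0296).

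The choice of score genes changed the result. When wells were ranked by ATP5F1A and ATP5F1B alone, 87 genes were higher and 118 lower, and 143 of the 163 genes were called again, all in the same direction. When they were ranked by the other 5 score genes, 0 genes were higher and 12 lower, and 5 of the 163 were called again. Of 162 of those genes that could be tested, 111 kept their sign. Both rankings were added after seeing the data, and the score genes were left out of each fit.

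Single genes show the same contrast. ACADVL had 2.16 when wells were ranked by the alpha and beta genes and 0.10 when they were ranked by the other 5 (adjusted p = 0.99). MYH7 had 1.70 and -0.27, GPI 2.04 and 0.03, and NDUFS1 1.98 and 0.14. The cytosolic ribosome had 56 of 73 genes lower under the first ranking and 0 of 73 under the second (medians -0.76 and -0.07), and glycolysis had 9 of 20 higher and 1 lower against 0 of 21.

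COX4I1, not called under either ranking, had -0.29 under the alpha and beta ranking and 0.51 under the other 5 (adjusted p = 0.22 and 0.243). The medians of complex IV were -0.07 and 0.29. For the 14 ATP synthase genes outside the score the medians were -0.24 and 0.30, with 3 lower and 0 higher under the first and 0 called under the second. The difference between the rankings was not tested, since the rankings use the same wells.

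**Figure D5:**
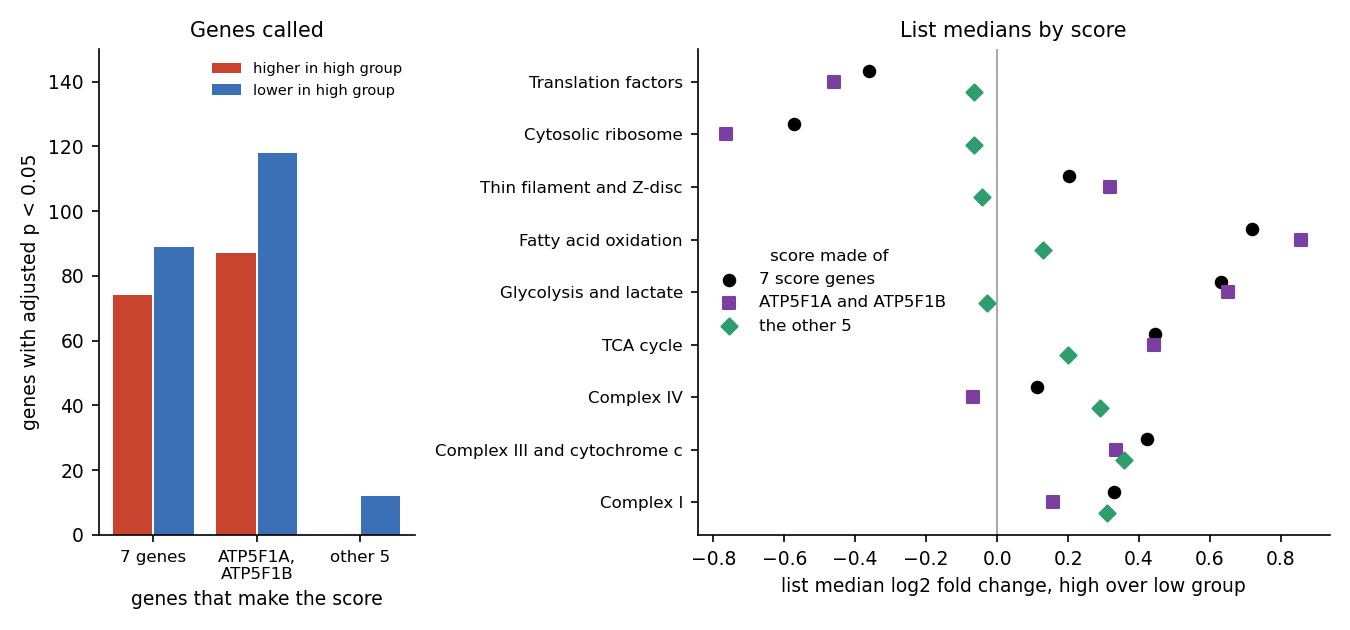
Left, number of genes with adjusted p under 0.05 (red higher, blue lower in the high group) when wells are ranked by all 7 score genes (74 and 89), by ATP5F1A and ATP5F1B (87 and 118) or by the other 5 (0 and 12). Right, median log2 fold change of 9 gene lists under the same 3 rankings, where glycolysis moves from 0.63 and 0.65 to -0.03 and the cytosolic ribosome from -0.57 and -0.76 to -0.07.

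The same split on the 1 dpci and 3 dpci plates, which the groups above did not use, gave mostly the same directions. These plates had 228 and 207 kept wells, and with 1 plate a time the ratios have no replicate check and no test. Of the 74 genes higher at 7 dpci, 64 of 73 with UMIs in both groups had a ratio above 1 at 1 dpci and 67 of 74 at 3 dpci. Of the 89 lower genes, 85 of 89 had a ratio below 1 at 1 dpci and 78 of 89 at 3 dpci. Over all tested genes, 1087 of 1870 and 1011 of 1868 ratios were above 1.

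ACADVL had a log2 ratio of 0.96 at 1 dpci and 0.86 at 3 dpci, NDUFS1 0.76 and 1.01, UQCRC1 0.64 and 0.83, and mb 0.72 and 0.93. The medians of the lists were 0.39 and 0.75 for complex I, 0.79 and 1.17 for fatty acid oxidation and -0.25 and -0.37 for the cytosolic ribosome, beside 0.15 and 0.11 for all genes. ATP synthase genes outside the score, with no call at 7 dpci, had medians of 0.18 at 1 dpci and 0.64 at 3 dpci. On both early plates the low group also carried the larger mitochondrial share, 22.6% against 5.03% of UMIs at 1 dpci and 15.4% against 2.30% at 3 dpci. The part of that share in these ratios was not tested.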

How the data were processed

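The deposited tables hold estimated counts per gene and well: UMIs that the authors' pipeline corrected for collisions among 4096 tags, with no scaling to depth. Reversing the correction gave whole numbers (within 0.02) for 98.8% to 99.4% of values per plate. Reads were mapped to Zv9 per the methods, and the submitters' processing notes name BWA 0.6.2; the annotation is not given in the sources used here. Non-ERCC UMIs were 374229, 808070 and 751800 on the 7 dpci plates, 1492123 at 1 dpci and 922071 at 3 dpci, and medians per kept well were 1522 to 3039; no doublet caller was run.

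UMIs were summed over the wells of each group (high, middle and low) of each plate and rounded. ERCC, 13 named and 2 unnamed mitochondrial genes and the 7 score genes were left out. Genes with at least 30 UMIs over 6 sums were tested with edgeR 4.0.16 in R 4.3.3 (quasi-likelihood, TMM, plate as a block, two-sided, Benjamini-Hochberg, 0.05) after a check on simulated data. CPM use TMM-scaled totals, and ± is 1 SE unless marked SD. Ratios at 1 and 3 dpci are on plain totals. DESeq2 1.42.0 was an alternative. The plate pairs the groups because both come from the same plate and library.

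Gene IDs were named from an Ensembl table, often with human symbols (14285 of 17997 matched, 79.4%), so paralogs may share a symbol. The alternatives were other scalings, count filters, well filters, splits and scores, leaving out each plate, and a fit with no plate block; 5 were added after seeing the data. The cells, lists and tests were chosen with earlier results of these data known. The text names the 10 called genes with the largest and the 10 with the lowest fold change of 1 sign on all plates, up to 4 called genes of lowest p per list, and a fixed set of metabolic and muscle genes; some genes are not reported here.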

Additional observations from a re-analysis of the deposited data

Results flagged for a closer look

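At 7 dpci 4 named genes differed between the high and the low group in one direction, while the single plates of 1 dpci and 3 dpci had ratios of the opposite sign. The difference between the times was not tested, since each earlier time has 1 plate. The chaperone hsp70l had a log2 fold change of 2.84 at 7 dpci and log2 ratios of -2.23 at 1 dpci and -2.39 at 3 dpci. The light chain MYL7 had -0.51 at 7 dpci against 0.24 and 0.43. Desmin, DES, had 1.28 against -0.32 and -0.22. The glyceraldehyde 3-phosphate dehydrogenase GAPDHS had 1.29 against -0.36 and -0.47.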

How the results depend on the processing

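The counts of 74 higher and 89 lower genes moved with the split and the depth, and in every setting but one each of the 163 calls that could be tested kept its direction. The exception was the ranking by the 5 score genes other than ATP5F1A and ATP5F1B (0 higher and 12 lower), where 111 of 162 did. DESeq2 gave 36 higher, and without the replicate block 28 were higher and 26 lower. Leaving out 1 plate gave 24 to 63 higher and 43 to 132 lower genes. Wells with at least 2000 UMIs gave 18 and 40, a split of each plate into 4 groups 49 higher, a split into 2 groups 5 and 10, the split within depth classes 35 higher, thinning to 1000 UMIs 27 and 37, and the reduced denominator 59 lower. The cause was not tested. Of 547 list values 430 stayed close and 117 moved.

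Of the called genes that are named above, those that changed sign did so only in the ranking by the other 5 genes: MYH7 -0.27, hsp70l -0.54, TNNI1 -0.044, MYL7 0.34, ENSDARG00000095765 -0.15, DES -0.63, GAPDHS -0.35, ENO1 -0.10, ENSDARG00000012709 -0.32, AK1 0.43, PFKM -0.064, eif5a 0.093, MCCC2 -0.079 and PDK4 -0.13. The called genes named only under the other observations below were not part of this listing. Genes that were not called changed sign there too: HK1 -0.40, MDH2 0.31, FABP3 0.38, actc1a 0.36, nppa -0.049 and tnnc1a -0.051.

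The other changes of sign were all in genes that were not called. For tnnc1a the value was -0.089 in DESeq2 and with median-of-ratios factors, -0.086 with myl7 at 5% or more, -0.010 with at least 100 UMIs a gene and in 2 groups, -0.014 with 2000 UMIs a well and with 1000 non-mitochondrial UMIs, -0.11 with the non-mitochondrial score, -0.082 in 4 groups, -0.063 within depth classes, -0.14 without the 4 wells with other markers, -0.049 with the reduced denominator, -0.047 with mitochondrial genes kept under the non-mitochondrial score, and from -0.15 to 0.0012 when 1 plate was left out. For nppa it was -0.24 with 2000 UMIs, -0.065 with 1000 non-mitochondrial UMIs, -0.11 without wells above 3 times the median, -0.14 within depth classes, -0.10 after thinning, -0.028 without the 4 wells, -0.26 with the reduced denominator, and from -0.40 to 0.81 when 1 plate was left out. For COX4I1 it was -0.037 in DESeq2 and with median-of-ratios factors, -0.072 with myl7 at 5%, -0.063 without the 4 wells, -0.29 with ATP5F1A and ATP5F1B, and from -0.040 to 0.017 when 1 plate was left out. For nppb it was 0.0066 with the non-mitochondrial score, 0.076 with mitochondrial genes kept as well and 0.28 with myl7 at 5%. For actc1a it was 0.053 with library totals, 0.0041 in 2 groups and 0.066 with the reduced denominator. For HK1 it was -0.25 in 2 groups, -0.022 within depth classes and -0.028 with the reduced denominator. For ckma it was -0.0086 in 2 groups, and for CKMT2 (ENSDARG00000039929) -0.038 with ATP5F1A and ATP5F1B.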

Other observations

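Of the 163 called genes 65 belonged to none of the lists, and those named here were picked after their values were seen. Several higher ones handle glycogen and sugar. The muscle glycogen phosphorylase PYGM had a log2 fold change of 1.47 ± 0.27 (edgeR, adjusted p = 0.00207), the aldolase ALDOC 1.55 ± 0.29 (adjusted p = 0.00222) and UGP2, which makes UDP-glucose, 0.90 ± 0.27 (adjusted p = 0.0472). Others act in mitochondria. ALAS1, the first enzyme of haem synthesis, had 1.18 ± 0.22 (adjusted p = 0.00229), AIFM1, a flavoprotein of the intermembrane space, 1.15 ± 0.31 (adjusted p = 0.0272), and ALDH6A1, of valine breakdown, 0.96 ± 0.28 (adjusted p = 0.04). The Z-disc proteins PDLIM5 and SORBS2 had 0.67 ± 0.15 and 0.69 ± 0.20 (adjusted p = 0.00778 and 0.0367).

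Among the lower genes outside the lists, the ferritin heavy chain fth1a had -0.63 ± 0.12 (adjusted p = 0.00218), and the RNA-binding proteins cirbpb and YBX1 had -0.69 ± 0.16 and -0.58 ± 0.18 (adjusted p = 0.00938 and 0.0459). BTF3, a part of the complex that meets new chains at the ribosome, had -0.59 ± 0.14 (adjusted p = 0.0144). In the ranking by the other 5 score genes, the 12 lower genes included the keratins krt8 at -2.85 and krt18a.1 at -4.92, and titin, TTN, at -1.16.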
